A study of Mus musculus with 4 samples.

Results

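Pi16+ Dpp4+ fibroblasts are the connective tissue cells found around vessels and in fascia, and they were followed here through single-cell RNA-seq of the mouse digit. A cell was a member when it had at least 1 UMI (unique molecular identifier, 1 counted RNA molecule) in 3 or more of the 6 fibroblast genes Pdgfra, Col1a1, Col1a2, Dcn, Lum and Dpt, and at least 1 UMI in 2 or more of the 3 markers Pi16, Dpp4 and Sema3c. Cells with 2 or more of Mki67, Top2a and Cenpf, genes of dividing cells, were left out. A member therefore need not hold UMIs of both Pi16 and Dpp4, and Dpp4 was detected in 35.0% to 55.1% of the members of a library. The rule found 8054 members among 93602 cells. Cells that met the fibroblast criterion, had fewer than 2 of the cycling genes and had fewer than 2 of the markers are called the other fibroblasts, and both together the fibroblast gate.

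The study asked whether lymphatic vessels take part in regeneration of the digit tip. All 4 libraries came from the amputation model, in which the tip of the terminal phalanx (P3) was cut from hindlimb digits 2 and 4. The P3 digits of female C57BL/6 mice aged 6 to 8 weeks were dissociated, and hindlimb digits 2 to 4 of 10 mice were pooled in each library, so that the uncut digit 3 may have been included. For dissociation the study describes taking the digits at the proximal level of the second phalanx (P2), so that tissue outside P3 may be included. In the diet experiment, mice fed chow with SAR131675, an inhibitor of the lymphatic growth factor receptor VEGFR3, at 30 mg/kg for 8 days were compared with mice on control diet. In the second experiment, limbs with lymph node removal (LNR) of the inguinal and popliteal nodes were compared with sham operated limbs. The study describes removal in 1 limb with the opposite limb as sham, so both libraries may come from the same mice. Each condition was 1 library with a batch of its own, so that batch and condition cannot be told apart and no test across animals was possible. Intervals are at 95% and cover counting error only, not the spread between cells or between animals. Values of 4 libraries are given in the order SAR131675, control diet, LNR and sham.

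Fibroblasts of this kind express Pi16, a secreted peptidase inhibitor homologue, Dpp4, a cell surface peptidase, and Sema3c, a guidance ligand. In many mouse tissues they lie in the adventitia, the outer connective sheath of vessels, and in fascia, where they are described as a progenitor-like state that can give rise to more specialised fibroblasts. They sit close to lymphatic and blood vessels and to tissue-resident immune cells. Position was not measured in these dissociated cells, and the name rests on the markers alone.

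Members were 2201 of 29076 cells in the SAR131675 library, 7.57% (7.27 to 7.88), and 1829 of 24030 cells on control diet, 7.61% (7.28 to 7.95). The LNR library held 2085 members of 19827 cells, 10.5% (10.1 to 11.0), and the sham library 1939 of 20669, 9.38% (8.99 to 9.79). The share of members thus differed by a log2 ratio of -0.01 (-0.10 to 0.08) between the diets and 0.16 (0.07 to 0.25) between LNR and sham. Among fibroblasts, members were 42.6% with SAR131675, 42.0% on control diet, 29.6% after LNR and 29.7% in sham limbs. The share of fibroblasts thus differed by less between LNR and sham than the share of all cells, but it was 25.2% and 23.2% when every cell was thinned to 3000 UMIs. The fibroblasts themselves numbered 7036 and 6531 in these libraries. A share of all cells is also set by the other cells that dissociation released.

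The libraries held between 21669 and 38464 barcodes and between 168507188 and 585284877 UMIs, and the diet libraries were the deeper pair. The median member had 11412, 10612, 4816 and 4681 UMIs, against 9199.5, 7915, 4197 and 4174 in the other fibroblasts. Members were the deeper cells in every library, and a rule that needs several detected genes picks deeper cells. The level of RNA is therefore given as CPM, the standard unit for a gene's UMIs relative to the summed UMIs of all genes in a group of cells, and levels were not compared between the experiments, since 5385 of 13317 genes were over 1.5-fold higher and 1740 lower in control diet members than in sham members. When every cell was thinned to 3000 UMIs and shallower cells were left out, 4.90%, 5.11%, 7.99% and 6.66% of cells were members. A doublet caller marked 7.63%, 3.01%, 11.5% and 14.9% of members, and these cells were kept. Members were marked more often than all kept cells, of which it marked 4.55%, 1.01%, 6.00% and 8.12%, against an expected rate between 15.9% and 23.3%. The libraries of the diet pair shared 210 cell barcodes, 3 of them members of both, and those of the LNR pair 101, with 2 members of both.

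The markers of the rule describe the members and test nothing. All 3 of them were detected in 40.8%, 41.6%, 26.6% and 24.0% of members, and Pi16 with Sema3c alone in 47.0%, 44.9%, 62.3% and 65.0%. Dpp4 was thus the marker most often missing, with UMIs in 53.0%, 55.1%, 37.7% and 35.0% of members. Just outside the threshold lay 1731, 1409, 2439 and 2287 fibroblasts with exactly 1 marker, and 1229, 1112, 2512 and 2305 had none. Pi16 was at 1282, 1325, 1844 and 1753 CPM in members, 110, 136, 287 and 284 CPM in the other fibroblasts and no more than 3.72 CPM outside the fibroblasts. Pi16 UMIs were seen in 2.31%, 1.34%, 2.68% and 1.91% of cells outside the fibroblasts. Sema3c and Dpp4 were not restricted to fibroblasts, since cells outside them held Sema3c UMIs in 37.0%, 34.6%, 17.8% and 19.3% and Dpp4 UMIs in 16.2%, 15.0%, 3.79% and 4.08%.

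Genes that the rule did not use set the members apart from the other fibroblasts in the same direction in all 4 libraries. In all, 17395 genes had at least 50 UMIs over members and other fibroblasts of the 4 libraries. Of these, 178 (1.02%) were at least 2-fold higher in members in every library and 449 (2.58%) at least 2-fold lower. These genes come from the same cells as the rule, so that the counts are a description. A gene with at most 3 UMIs in both groups of a library had no ratio there and could not be counted as higher or lower. Such genes stay among the 17395 but were left out of the list counts below. Among 25 genes known from adventitial fibroblasts, 13 were at least 2-fold higher in every library, none 2-fold lower, and 22 were higher in all 4. The median log2 ratio of this list was 1.49, 1.35, 1.11 and 1.13, beside -0.07, -0.06, 0.00 and 0.03 over all genes.

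The list holds surface and secreted proteins. Cd34, a sialomucin of progenitor and endothelial cells, was at 678, 838, 899 and 889 CPM in members and at 146, 197, 251 and 260 CPM in the other fibroblasts. Cd248, endosialin, was at 287, 297, 450 and 431 CPM against 60.5, 72.0, 135 and 131 CPM. Clec3b, the plasminogen-binding protein tetranectin, was at 1387, 1407, 1830 and 1786 CPM against 312, 326, 557 and 571 CPM. For these 3 genes the lowest member value of each experiment lay above its highest value in the other fibroblasts. Thy1 and Ly6a, surface markers of mesenchymal progenitors, were higher too, with Thy1 at 379, 440, 333 and 308 CPM against 135, 172, 146 and 134 CPM. Ly6a was at 1748, 1633, 1768 and 1694 CPM against 620, 602, 869 and 886 CPM. Limch1, an actin-binding protein, was the list's exception, lower in members in every library by log2 ratios between -0.87 and -0.20.

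**Figure D1:**
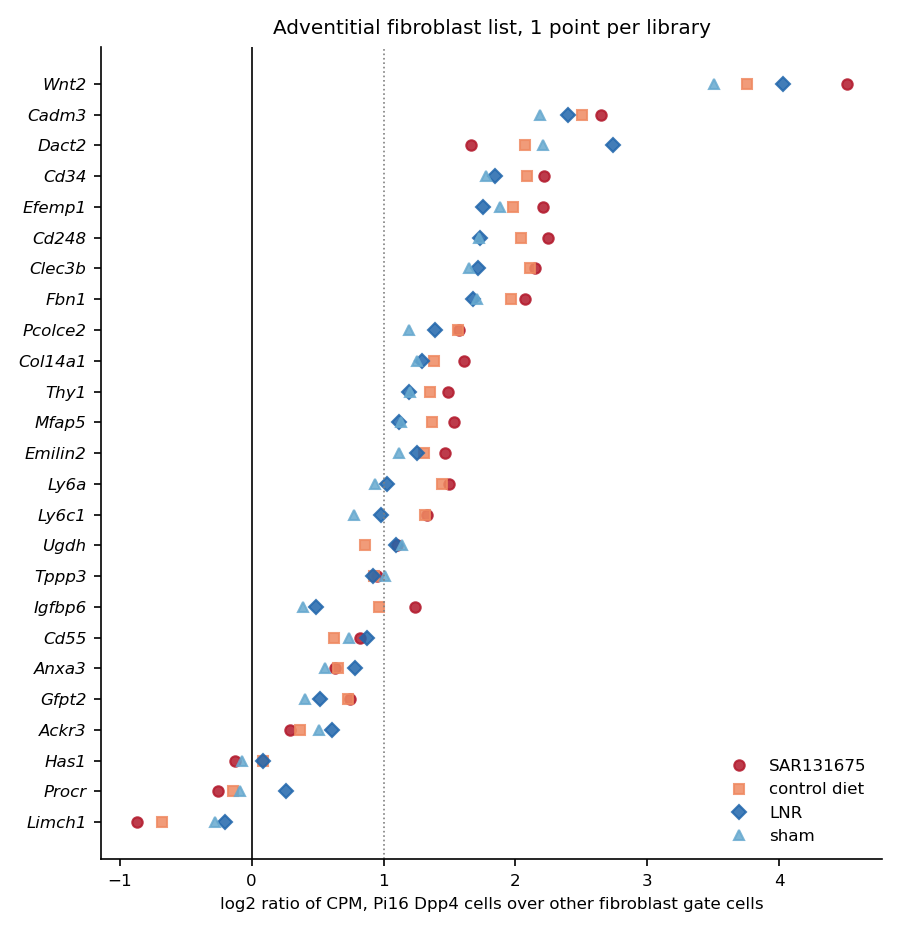
Log2 ratio of CPM, members over other fibroblasts, for the 25 genes known from adventitial fibroblasts, with 1 point per library. All but Limch1, Has1 and Procr lie above 0 in the 4 libraries, and Cadm3, Cd34, Cd248 and Clec3b lie among the highest.

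The genes that differed most, ranked by their lowest ratio among the 4 libraries, included a Wnt ligand and a lectin. Colec10, a soluble collectin that binds sugars, was at 31.6, 35.8, 19.4 and 23.6 CPM in members, with log2 ratios over the other fibroblasts of 5.05, 5.22, 4.67 and 4.37. Wnt2, a secreted Wnt ligand, was at 57.4, 69.2, 56.9 and 47.7 CPM in members and at 2.52, 5.12, 3.48 and 4.21 CPM in the other fibroblasts. Wnt2 was carried by a subset, with UMIs in 25.9%, 27.6%, 21.2% and 18.1% of members and between 1.52% and 2.82% of other fibroblasts. Further down the ranking stood Pou2f2, a POU-domain transcription factor, with log2 ratios of 2.99, 3.34, 2.63 and 2.52, and Prdm8, a transcriptional repressor, with 3.84, 3.90, 3.12 and 2.90. Cadm3, a cell adhesion molecule, had ratios of 2.65, 2.51, 2.40 and 2.18, and Adgrd1, an adhesion G protein-coupled receptor, 2.57, 2.60, 2.39 and 2.23. Fgf16, a fibroblast growth factor, was low in members at 8.99, 9.29, 5.21 and 5.24 CPM yet above the 2.01, 1.97, 1.01 and 1.02 CPM of the other fibroblasts.

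Matrix genes lay in both directions. Of 19 genes of elastic fibres and microfibrils, 4 were at least 2-fold higher in members in every library and 1 lower. Beside this and the counts below, 1.02% of all genes were higher and 2.58% lower. Fbn1, the main microfibril protein fibrillin-1, was at 2062, 2304, 977 and 943 CPM in members against 490, 590, 306 and 288 CPM. Mfap5, Efemp1 and Emilin2, which bind microfibrils or elastic fibres, were the others, and Efemp1 had log2 ratios of 2.20, 1.98, 1.76 and 1.88. Eln, elastin itself, showed no common direction, with ratios of 0.04, 0.50, -0.12 and 0.12, and Fbn2, fibrillin-2, was the lower gene, between -2.80 and -2.26. Of 23 collagens and other matrix genes, 4 were higher (Col14a1, Tnxb, Postn and Aspn) and 2 lower (Tnc and Fmod). Col14a1, a collagen of fibril surfaces, had ratios of 1.61, 1.38, 1.29 and 1.26, while Fmod, the tendon proteoglycan fibromodulin, had ratios of -1.75, -2.43, -1.62 and -3.12. Of 13 hyaluronan genes, the synthase Has2 was 2-fold higher at 126, 130, 107 and 107 CPM against 45.1, 46.4, 43.5 and 42.9 CPM, and Cemip and Cemip2, which act in hyaluronan breakdown, were 2-fold lower.

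Among secreted signals, 3 of 20 chemokine and cytokine genes were 2-fold higher in members in every library and none 2-fold lower. Over all genes the shares were 1.02% higher and 2.58% lower. Ccl11, the eosinophil chemoattractant eotaxin, was at 258, 262, 226 and 198 CPM in members and 85.8, 102, 96.9 and 87.4 CPM in the other fibroblasts. Ccl7, a monocyte chemoattractant, had log2 ratios of 1.98, 1.39, 1.02 and 1.15. Tslp, a cytokine of type 2 immunity, was low at 4.20, 3.88, 8.30 and 8.91 CPM, but at 1.43, 0.915, 3.37 and 3.38 CPM in the other fibroblasts. Il4ra, the receptor for interleukins 4 and 13, belonged to no list and was singled out after its values were seen, at log2 ratios of 2.33, 2.51, 1.92 and 1.81. Of 8 complement genes, none was past 2-fold in every library, while 6 were above the other fibroblasts in every library and 1 below. Among them C3 had ratios of 1.66, 1.12, 0.97 and 0.88. Of 28 genes of the Wnt, BMP and TGF-beta pathways, 4 were 2-fold higher (Wnt2, Dact2, Sfrp4 and Tgfbr2) and 2 lower (Rspo3 and Wif1). Rspo3, an amplifier of Wnt signalling, was at 36.1, 36.1, 30.1 and 25.9 CPM in members and at 193, 121, 65.3 and 58.7 CPM in the other fibroblasts.

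Ligands of lymphatic and blood vessels were no marked feature of the members, with none of 16 at least 2-fold higher in all libraries and 1 lower. Of all genes, 1.02% were higher and 2.58% lower by this measure. Vegfc, the main lymphatic growth factor, was at 52.0, 62.8, 15.6 and 14.2 CPM in members and at 37.7, 58.4, 13.5 and 14.4 CPM in the other fibroblasts. Ccbe1, a cofactor of Vegfc processing, was at 76.1, 82.4, 7.74 and 9 CPM against 55.7, 84.6, 13.6 and 12.3 CPM. Vegfd, another VEGFR3 ligand, was higher in members in every library, at 55.6, 55.3, 37.1 and 32.0 CPM against 23.3, 27.6, 20.4 and 21.2 CPM. Angpt2, an antagonist of the Tie2 receptor, was the 2-fold lower gene. Of 8 regulators of osteoclasts, the cells that resorb bone, 1 was 2-fold higher, the prostaglandin synthase Ptgs2, with log2 ratios of 1.49, 1.68, 1.13 and 1.44. Csf1, a growth factor of macrophages and osteoclasts, had ratios of 1.22, 1.12, 0.78 and 0.74.

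Genes of other fibroblast states were mostly lower in members. Of 20, 12 were at least 2-fold lower in members in every library, none 2-fold higher, and Il33 alone was higher in all 4. Beside this and the counts below, 2.58% of all genes were lower and 1.02% higher. Of 14 genes of activated fibroblasts, 1 was 2-fold higher (Postn) and 4 lower. Of 9 genes of the insulin-like growth factor system, Igfbp5 was 2-fold higher, at 3655, 4206, 4143 and 4062 CPM against 1183, 1426, 1526 and 1554 CPM. Of 20 proteases and inhibitors, Adamts15 and Pcolce2 were 2-fold higher and the collagenase Mmp13 lower. Of 12 genes of fat cell progenitors with enough UMIs, 1 was higher and 1 lower, and none of 10 interferon genes, 16 immediate early genes or 20 genes of limb position passed 2-fold in all libraries in either direction. Hoxd13, which marks the digits, was at 67.9, 79.2, 63.7 and 54.9 CPM in members and 75.4, 81.2, 66.9 and 60.7 CPM in the other fibroblasts. Mmp13, Spp1, Bglap and Ibsp, genes of bone-forming cells, led the ranking of the lower genes, and Ibsp was at 7.79, 1.53, 59.8 and 1.83 CPM in members and between 378 and 594 CPM in the other fibroblasts.

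Members were also set beside those of the other fibroblasts with UMIs of at least 2 of the tendon markers Tnmd, Scx and Mkx (813 cells), or of at least 2 of the synovial lining markers Prg4, Clic5, Tspan15 and Htra4 (3012 cells). Pi16 was used to choose the members, and Tnmd and Prg4 to choose the cells they are compared with, so that the levels of these 3 genes follow from the choice. Pi16 was at 95.3, 75.8, 67.7 and 72.6 CPM in the tendon-marker cells and 30.3, 17.2, 51.4 and 44.5 CPM in the lining-marker cells. Cd34 followed the same order, at 136, 136, 117 and 130 CPM in tendon-marker and 53.6, 58.9, 71.5 and 72.1 CPM in lining-marker cells. Fbn1 was at 480, 501, 244 and 256 CPM in tendon-marker cells and 242, 209, 88.8 and 90.1 CPM in lining-marker cells. Wnt2 was at most 1.62 CPM in lining-marker cells. Other genes of the adventitial list went the other way. Has1 was at 285, 360, 605 and 572 CPM in lining-marker cells and 112, 163, 283 and 258 CPM in members. Ackr3, Anxa3, Cd55, Gfpt2, Limch1 and Procr were also higher in lining-marker cells than in members in every library. Tnmd, a tendon marker, was at 72.3, 45.3, 33.3 and 23.7 CPM in members and between 440 and 729 CPM in tendon-marker cells. Prg4, the lining gene lubricin, reached 1831, 1596, 7388 and 4912 CPM in members, against 90329 to 100955 CPM in lining-marker cells.

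The members were not uniform. Fibroblasts of each experiment were clustered, and clusters are named here by their leading genes only. In the diet experiment, 5 of 22 clusters were mostly members and together held 2928 members, 72.7%. The cluster led by Wnt2, Colec10 and Pou2f2 was 93.6% members and held 1059 of them. The cluster led by Lpl, Ifi27l2a and Postn was 87.3% members (571), that led by Il33 and Slc25a21 66.1% (493), that led by Tmem255b and Spag17 62.1% (90) and that led by Ccbe1, Coch and Gpm6a 54.7% (715). The 10 leading genes of the Il33 cluster included the haemoglobin genes Hbb-bt, Hbb-bs, Hba-a1 and Hba-a2. A further 343 members lay in a cluster led by Cfd and Mdfic2, 157 in one led by Fmo2, and 269 in one led by Krt15 and Col17a1 with further keratin genes, a cluster left without a name. In the LNR experiment, 1 of 21 clusters, led by Wnt2, Ccer2 and Pou2f2, was mostly members (75.6%) and held 1839, 45.7%. Among members, Ccer2 rested on few cells, with 99.7% of its UMIs in the LNR library in 5 members. A cluster led by the epidermal genes Cst6, Defb6 and Krt17 held 543 members, a C4b and Cfd cluster 395 and an Mfap4 and Crabp1 cluster 358. A cluster led by Cd74 and H2-Aa, genes of antigen presentation, held a further 88 members there and a like cluster 48 in the diet pair.

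**Figure D2:**
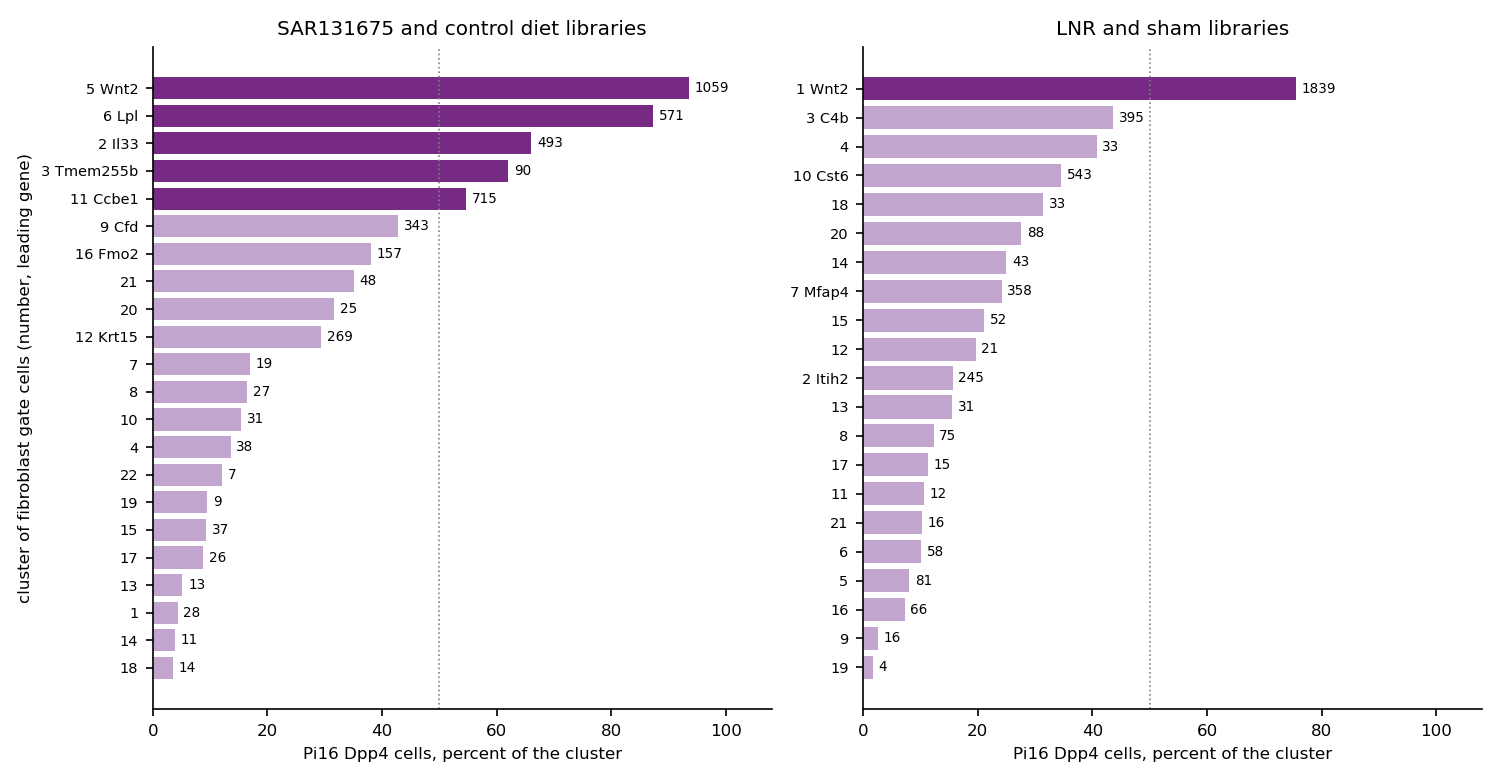
Members as a percent of the cells of each cluster of the fibroblasts, with clusters labelled by number, and by leading gene where they are mostly members or hold at least 100, the number of members beside each bar and a dotted line at 50%. In the diet pair 5 clusters pass the line, led by the Wnt2, Colec10 and Pou2f2 cluster at 93.6%, and in the LNR pair 1 does, at 75.6%.

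Shares of the members by cluster differed between paired libraries in some clusters and little in others. The Wnt2, Colec10 and Pou2f2 cluster held 24.7% of SAR131675 members and 28.2% of control members, and the keratin-led cluster 7.81% and 5.30%. In the LNR pair the main cluster held 45.1% and 46.4%, and the Cst6, Defb6 and Krt17 cluster 12.5% and 14.5%. A small cluster led by S100a9, S100a8 and Cxcl2 held 29 LNR and 4 sham members, one led by the epidermal genes Hrnr, Wfdc21 and Lor 6 and 37, and one led by the bone genes Mmp13, Bglap and Ibsp 14 and 2. In the diet pair a cluster led by Mmp13 and Bglap held 10 SAR131675 members and 1 control member. Genes that led these small clusters are among those that differed between paired libraries below, and the part of the clusters in those ratios was not tested. The clusters themselves were defined by the genes of these cells, so that their levels below are a description.

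Within the members of the diet pair, levels of several signalling genes differed between clusters. Wnt2 was at 176 CPM in the cluster it led, at 65.8 CPM in the Fmo2 cluster and between 3.76 and 42.6 CPM in the other 5 with at least 100 members. Il4ra was at 162 CPM in the Wnt2 cluster, 118 in the Lpl cluster and 13.5 in the Ccbe1 cluster. Cxcl12, a chemokine that holds immune and stem cells in place, was split otherwise, at 2205 CPM in the Il33 cluster and 2275 in the Lpl cluster but 416 in the Wnt2 cluster. Il33, an alarmin of type 2 immunity, was at 247 CPM in its cluster and between 16.7 and 64.0 CPM elsewhere.

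Vegfc was at its highest in the Ccbe1, Coch and Gpm6a cluster. Its level was 171 CPM there and between 13.0 and 45.0 CPM in the other clusters. Vegfd was at 86.4 CPM in the Lpl cluster, 80.6 CPM in the Ccbe1 cluster and between 28.2 and 63.7 CPM in the others. Ccbe1, which led this cluster, was at 395 CPM there and between 7.31 and 30.7 CPM elsewhere. In the LNR pair, Vegfc and Ccbe1 were again at their highest in 1 cluster, that led by Mfap4 and Crabp1, at 58.6 CPM for Vegfc and 85.9 CPM for Ccbe1, against 13.8 and 1.15 CPM in the Wnt2 cluster. Postn, a matricellular protein, was at 3953 CPM in the Lpl cluster and 94.6 CPM in the Fmo2 cluster. C3 was at 1018 CPM in the Cfd cluster and 118 in the Il33 cluster. Efemp1 was at 870 CPM in the Ccbe1 cluster, 523 in the Lpl cluster and 92.3 in the Fmo2 cluster. Pi16 itself was at 2672 CPM in the Il33 cluster and at 486 in the keratin-led cluster, where Krt5 was at 1714 CPM against 28.8 to 36.5 CPM in the other clusters.

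**Figure D3:**
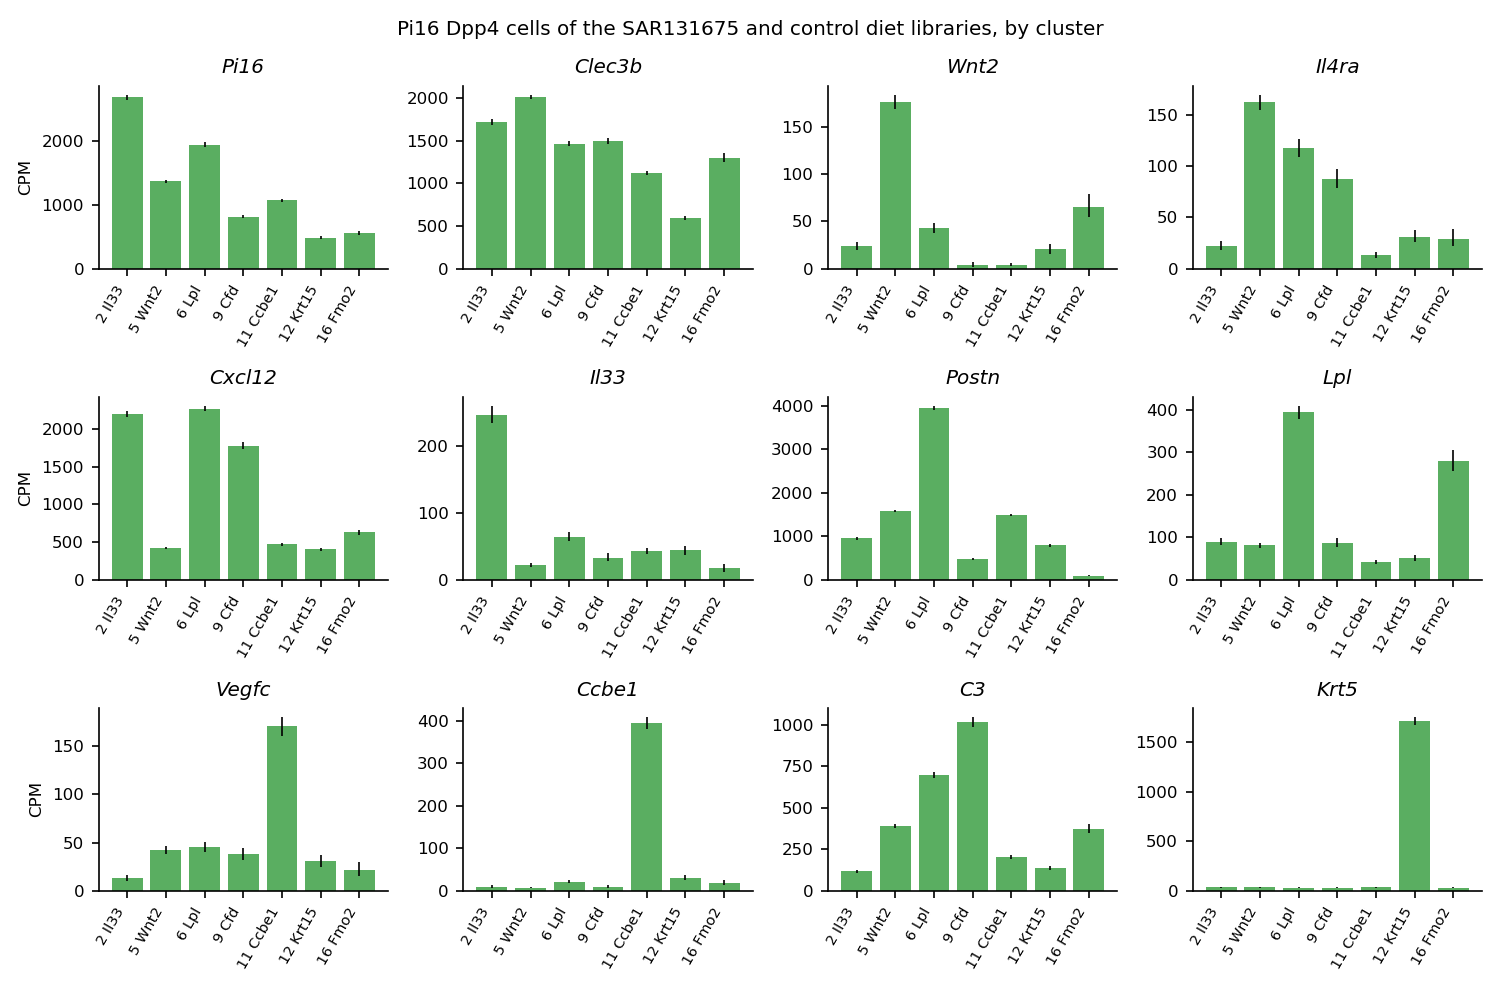
Level of 12 genes in CPM in the members of each of the 7 clusters of the diet pair with at least 100 members, labelled by number and leading gene, with bars from 0 and error lines for exact Poisson intervals at 95%. Wnt2 and Il4ra are at their highest in the Wnt2 cluster, Vegfc and Ccbe1 in the Ccbe1 cluster, Il33 in the cluster it led, and Krt5 in the cluster led by Krt15.

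Across the SAR131675 diet, most genes of the members stayed within 1.5-fold. Of 14156 genes with at least 50 UMIs over the members of the pair, 602 (4.25%) were over 1.5-fold higher with SAR131675 and 345 (2.44%) over 1.5-fold lower. Without the 5 members of each library that held most of each gene, 624 of these 947 genes were still past 1.5-fold. Of 8732 genes with UMIs in at least 10% of the members of both libraries, 31 (0.355%) were over 1.5-fold higher and 39 (0.447%) lower, and the standard deviation of their log2 ratios was 0.195. Below, a value past 1.5-fold is called higher or lower with no test behind it, and for most genes described the ratio in the other fibroblasts is given beside it.

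The members' own markers differed little between the diets. Of the 25 adventitial genes, none was over 1.5-fold higher and 2, Cadm3 and Gfpt2, were lower, with a list median of -0.16 beside -0.01 over all genes tested. The shares over all genes tested were 4.25% higher and 2.44% lower. Cadm3 was at 68.2 CPM with SAR131675 and 102 CPM on control diet, with a log2 ratio of -0.59 (-0.68 to -0.49), and -0.73 in the other fibroblasts. Without the 5 highest members of each library the ratio of Cadm3 was -0.577, under 1.5-fold. In clusters with mostly members 1 of the 25 genes was lower. Pi16 differed by -0.05 (-0.07 to -0.02), Cd34 by -0.31 (-0.34 to -0.27) and Wnt2 by -0.27 (-0.38 to -0.16). Pi16 is a gene of the rule, so that its level in members follows in part from the choice. Of the other genes of the rule, Col1a1 was at 3073 and 2236 CPM, Sema3c at 509 and 452 CPM and Dpp4 at 139 and 142 CPM. None of 19 elastic fibre genes, 8 complement genes or 16 immediate early genes passed 1.5-fold in either direction. Of 15 lymphatic and vascular ligands, 1 was higher (Angpt2, low in both libraries) and none lower, while Vegfc was at 52.0 and 62.8 CPM (-0.27, -0.38 to -0.16) and Vegfd at 55.6 and 55.3 CPM (0.01, -0.11 to 0.12).

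Genes of activated fibroblasts gave several of the genes past 1.5-fold. Of 14, 4 were over 1.5-fold higher with SAR131675 (Timp1, Tnc, Tagln and Cthrc1), beside 4.25% of all genes tested, and none lower, with a median of 0.26. In the other fibroblasts none of the 14 passed 1.5-fold, with a median of 0.22, and outside the fibroblasts 2 were higher, with a median of 0.21. Timp1, an inhibitor of matrix metalloproteinases, was at 75.0 CPM with SAR131675 and 36.7 CPM on control diet, with a log2 ratio of 1.03 (0.91 to 1.16), against 0.10 in the other fibroblasts. A small number of cells carried much of it, since 35.1% of its UMIs in the SAR131675 library came from 5 members, and without the 5 highest members of each library the ratio was 0.51 (0.37 to 0.65), under 1.5-fold, and that of Cthrc1 was 0.47. It was above 0 in all 7 clusters with at least 100 members, between 0.50 and 1.62. Tnc, the matrix protein tenascin-C, was at 36.4 and 16.6 CPM, a ratio of 1.13 (0.95 to 1.32), with 0.29 in the other fibroblasts, and was detected in 7.77% and 4.16% of members. Tagln, a contractile protein, was at 33.6 and 14.8 CPM, a ratio of 1.18 (0.99 to 1.38), with 0.58 in the other fibroblasts and 56.8% and 47.2% of its UMIs in 5 members.

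Single genes of the lists of osteoclast regulators and of Wnt, BMP and TGF-beta signalling passed 1.5-fold. Over all genes tested, 4.25% were higher and 2.44% lower between the diets. Tnfrsf11b, osteoprotegerin, a decoy receptor that holds back osteoclast formation, was at 20.1 and 11.1 CPM, with a log2 ratio of 0.86 (0.62 to 1.09), against 0.28 in the other fibroblasts and 0.86 without the 5 highest members. Inhba, a subunit of activin A, was at 53.8 and 30.4 CPM, a ratio of 0.83 (0.69 to 0.97), against 0.20 in the other fibroblasts. Mmp3, a matrix metalloproteinase, was at 83.1 and 53.4 CPM, a ratio of 0.64 (0.53 to 0.75), against -0.13, and 0.55, under 1.5-fold, without the 5 highest members. For these 3 genes and Timp1 the ratio in members was the larger, and the difference between the ratios was not tested. Of 8 osteoclast regulators, 2 were higher, Tnfrsf11b and Tnfsf11, whose 56 UMIs lay in 10 SAR131675 members, 91.1% of them in 5, and which had none on control diet. In clusters with mostly members the list gave 1 higher and 1 lower of 7. Of 28 Wnt, BMP and TGF-beta genes, 2 were higher, Inhba and Grem1, with a list median of 0.01. Runx2, a transcription factor of bone formation and 1 of the osteoblast markers below, was at 47.8 and 29.6 CPM, with a ratio of 0.69 in members and 0.055 in the other fibroblasts, and the ratio turned to -0.11 among members with all 3 markers.

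Of the 345 lower genes, 39 were widely detected, and 7 of those 39 are described first. Zbtb16, a zinc finger transcription factor, was at 96.5 CPM with SAR131675 and 191 CPM on control diet, with a log2 ratio of -0.98 (-1.06 to -0.91), and had UMIs in 52.9% and 71.5% of members. Its ratio was between -1.34 and -0.75 in all 7 clusters, -1.16 in the other fibroblasts and -0.83 outside the fibroblasts, so that the lower level was not particular to the members. Mt1, a metallothionein that binds zinc, was at 320 and 533 CPM, a ratio of -0.73 (-0.78 to -0.69), and -0.63 in the other fibroblasts. Per1, a gene of the circadian clock, was at 19.8 and 31.3 CPM, a ratio of -0.66 (-0.83 to -0.48), and -0.75 in the other fibroblasts. Gfpt2, the entry enzyme of hexosamine synthesis, was at 326 and 495 CPM, a ratio of -0.60 (-0.65 to -0.56), and -0.62 in the other fibroblasts. Il4ra was at 61.1 and 96.5 CPM, a ratio of -0.66 (-0.76 to -0.56), and -0.47 in the other fibroblasts. Cntfr, a receptor of ciliary neurotrophic factor, and Spsb1, a ubiquitin ligase adaptor, had ratios of -0.97 and -0.91, with -1.28 and -0.68 in the other fibroblasts. None of these 7 genes was past 1.5-fold between LNR and sham, where Zbtb16 was at 29.3 and 29.4 CPM. Per2 and Fkbp5, a target of the glucocorticoid receptor, were looked at after these values were seen. Per2 was at 5.36 and 13.8 CPM (-1.37, -1.68 to -1.06), with -1.05 in the other fibroblasts, and Fkbp5 had a ratio of -0.53, under 1.5-fold, in members and -0.78 in the other fibroblasts. In a list of 15 glucocorticoid response genes drawn up at that point, 6 were lower, beside 2.44% of all genes tested, and none higher (Zbtb16, Spsb1, Mt1, Per1, Nfil3 and Mt2), with a median of -0.55. In the other fibroblasts 7 of the 15 were lower, with a median of -0.54, and outside the fibroblasts 3, with a median of -0.21. A list of 15 circadian clock genes gave 3 lower (Per1, Per2 and Nfil3) and none higher, with a median of -0.32 in members, -0.31 in the other fibroblasts and -0.45 outside the fibroblasts, where 2 were lower. Both lists hold genes picked for their ratios, so that these counts are a description.

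Among the widely detected genes that were higher, 3 were enzymes of sterol synthesis, which were noted after the values were seen. In a list of 21 genes of the pathway drawn up at that point these 3 were the ones past 1.5-fold, beside 4.25% of all genes tested. The list median was 0.45 in members, 0.25 in the other fibroblasts and -0.19 outside the fibroblasts. The list holds the genes picked for their ratios, so that its count and median are a description. Fdps was at 68.2 and 41.3 CPM, with a log2 ratio of 0.72 (0.60 to 0.84), and 0.56 in the other fibroblasts. Idi1 was at 90.7 and 56.7 CPM, a ratio of 0.68 (0.57 to 0.78), and 0.47 in the other fibroblasts. Fdft1 had a ratio of 0.64 in members and 0.31 in the other fibroblasts, while Hmgcs1 was at 174 and 133 CPM, a ratio of 0.38 (0.31 to 0.45), and Sqle had a ratio of 0.35 (0.22 to 0.49). Sdf2l1, a chaperone of the endoplasmic reticulum, was at 27.5 and 15.6 CPM, a ratio of 0.82 (0.62 to 1.02), and 0.61 in the other fibroblasts. It was the 1 gene past 1.5-fold of 16 chaperone and stress genes of that compartment, beside 4.25% of all genes tested. That list was also drawn up after the values were seen.

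**Figure D4:**
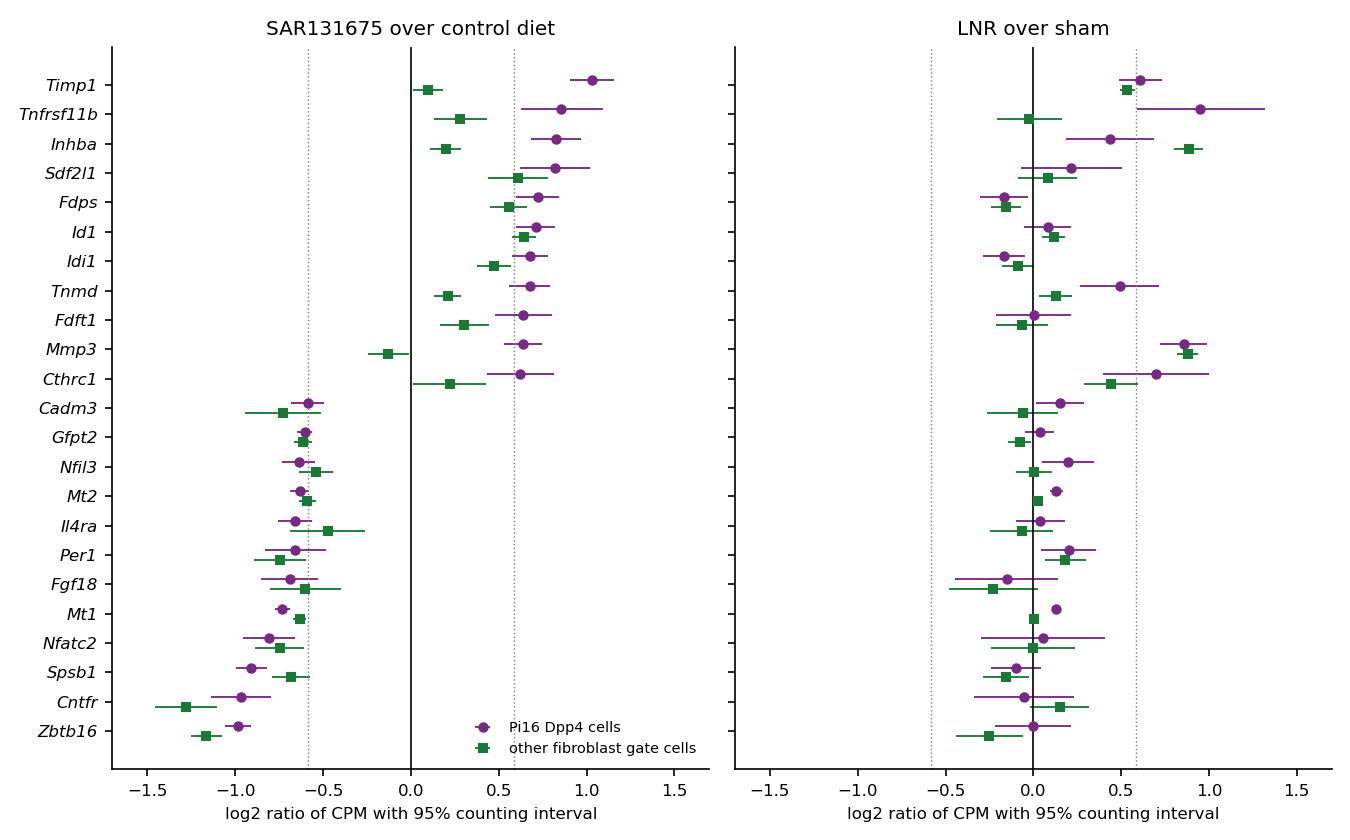
Log2 ratio of CPM, treated over control, for 23 genes in members (circles) and in the other fibroblasts (squares) of both pairs, with counting intervals at 95% and dotted lines at 1.5-fold. In the diet pair Timp1, Tnfrsf11b, Inhba and Mmp3 lie further above 0 in members than in the other fibroblasts, Zbtb16 lies below the lower line in both, and in the LNR pair Zbtb16 lies at 0 in members.

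Between LNR and sham, too, most genes of the members stayed within 1.5-fold. Of 12298 genes with at least 50 UMIs, 309 (2.51%) were over 1.5-fold higher after LNR and 407 (3.31%) lower. Of 5872 widely detected genes, 6 (0.102%) were higher and 17 (0.29%) lower, and the standard deviation of the log2 ratios was 0.140. The 17 lower genes included the epidermal genes Krt1, Krt10, Dsp and Cst6, beside which the levels of keratinocyte markers are given below. In the main cluster of members Krt1 turned to 0.11. None of 6 keratinocyte markers passed 1.5-fold there, with a median of -0.06. The 6 higher genes were Hbb-bs, Mmp3, Tpm2, Rgcc, Timp1 and Prg4, of which Tpm2 and Prg4 turned to -0.11 and -0.0094 in the main cluster of members. None of the 25 adventitial genes passed 1.5-fold in either direction, with a list median of 0.06, and none of 13 lymphatic and vascular ligands, 28 Wnt, BMP and TGF-beta genes, 8 complement genes or 16 immediate early genes did so.

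Of the 14 genes of activated fibroblasts, 5 were over 1.5-fold higher after LNR (Acta2, Tagln, Tnc, Cthrc1 and Timp1), beside 2.51% of all genes tested, and none lower, with a median of 0.41 beside 0.01 over all genes tested. In the main cluster of members 1 of 11 was higher, with a median of 0.18, and in the other fibroblasts none of 14, with a median of 0.32. Among members without cells of mixed lineage, described below, 3 of 14 were higher. Acta2, smooth muscle actin, was at 110 and 41.1 CPM, with a log2 ratio of 1.42 (1.27 to 1.58), with 0.40 in the other fibroblasts and 51.0% of the UMIs of the LNR library in 5 members. Acta2 and Tagln were leading genes of a small cluster with the mural cell genes Myh11 and Rgs5, which held 20 LNR and 11 sham members, and the 5 mural markers summed to 151 and 114 CPM in the members. Timp1 and Mmp3 were leading genes of the Mmp13 and Bglap cluster with its 14 and 2 members. The part of these clusters in the ratios was not tested. Timp1 was at 111 and 72.9 CPM, a ratio of 0.61 (0.48 to 0.73), and 0.54 in the other fibroblasts. In the main cluster of members the ratios were smaller, 0.56 for Acta2, 0.67 for Tagln and 0.25 for Timp1, and in the 5 clusters with at least 100 members that of Timp1 ran from -0.47 to 0.25. Mmp3 was at 112 and 61.8 CPM, a ratio of 0.85 (0.72 to 0.99), with 0.88 in the other fibroblasts and 1.26 in the main cluster of members. Without the 5 highest members of each library Timp1 was at 0.43, Cthrc1 at 0.49 and Mmp3 at 0.52, all under 1.5-fold. Tnfrsf11b was at 16.0 and 8.30 CPM, a ratio of 0.95 (0.59 to 1.32), with -0.02 in the other fibroblasts and 0.92 without the 5 highest members. Inhba was at 25.8 and 19.0 CPM, a ratio of 0.44 (0.18 to 0.69), with 0.88 in the other fibroblasts.

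**Figure D5:**
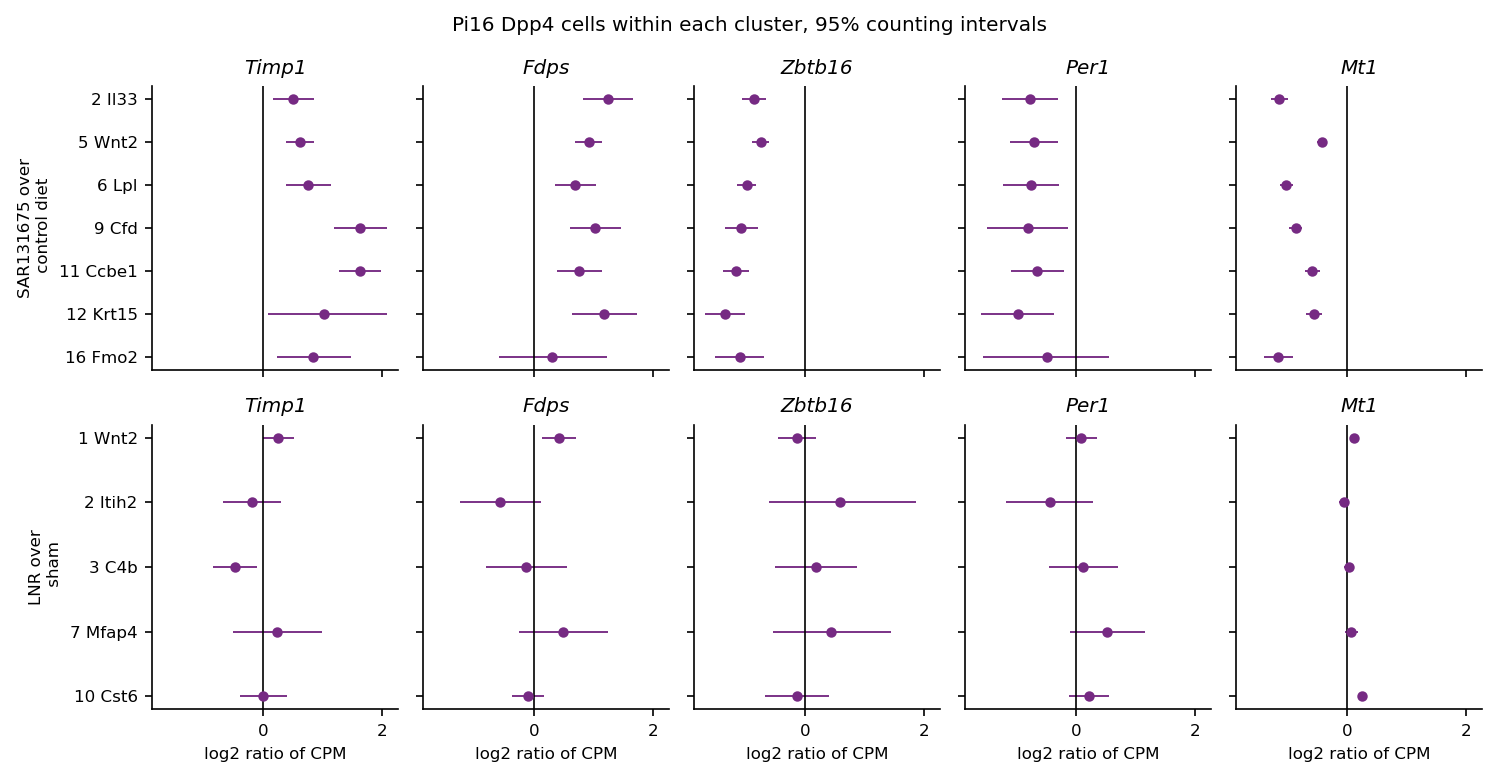
Log2 ratio of CPM, treated over control, of Timp1, Fdps, Zbtb16, Per1 and Mt1 in the members of each cluster with at least 100 members, labelled by number and leading gene, with counting intervals at 95%. In the diet pair Timp1 lies above 0 and Zbtb16 and Mt1 below 0 in all 7 clusters, while in the LNR pair Timp1 lies on both sides of 0.

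Some genes were higher in both treated libraries. Of 12147 genes tested in both pairs, 40 were over 1.5-fold higher in both and 8 lower in both. In the single pairs 4.25% and 2.51% of all genes tested were higher, and 2.44% and 3.31% lower. The overlap was not compared with one expected from these shares. Of 5849 widely detected genes, 4 were higher in both (Hbb-bs, Rgcc, Mmp3 and Timp1) and none lower. Of these 4, Hbb-bs alone stayed past 1.5-fold in both pairs without the 5 highest members of each library. Timp1 was then at 0.51 and 0.43, Mmp3 at 0.55 and 0.52 and Rgcc at 0.48 and 0.70. Between the diets Rgcc turned to values below 0 under 3 other settings and Hbb-bs under 1. At 1.3-fold, Cpe and Cdh11, a cadherin of mesenchymal cells, joined them. Cdh11 was at 186 and 139 CPM between the diets, with a log2 ratio of 0.43 (0.36 to 0.50), and its ratio between LNR and sham was 0.48 (0.32 to 0.64). The ratio for Tnfrsf11b, which was detected in fewer cells, was also past 1.5-fold in both. The pairs share no library.

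Genes of other fibroblast states were higher in 6 of 20 between the diets, beside 4.25% of all genes tested, and in 5 of 19 between LNR and sham, beside 2.51%, and none was lower in either. Their list medians were 0.38 in both pairs, and in the main cluster of members of the LNR pair 1 of 11 was higher and 1 lower. The lists that follow gave at most 3 genes each past 1.5-fold in 1 direction. Beside their counts stand 4.25% higher and 2.44% lower of all genes tested between the diets, and 2.51% and 3.31% between LNR and sham. Of 23 collagens and matrix genes, 1 was higher between the diets (Tnc) and 2 between LNR and sham (Tnc and Fmod), with Fmod at 117 and 39.9 CPM after LNR and in sham limbs. Hyaluronan genes gave 1 higher (Cemip) and 1 lower (Gfpt2) of 12 between the diets and none of 11 between LNR and sham. Chemokines and cytokines gave 1 lower of 18 between the diets, Cxcl2, and 2 higher and 1 lower of 19 between LNR and sham. Cxcl2, a neutrophil chemoattractant, was at 15.6 and 27.3 CPM between the diets, with a log2 ratio of -0.81 (-1.003 to -0.62), and at 123 and 48.4 CPM after LNR and in sham limbs, a ratio of 1.35 (1.21 to 1.49). Cxcl2 was a leading gene of the S100a9 cluster, with its 29 LNR and 4 sham members, and in the main cluster of members none of 15 chemokine and cytokine genes was higher after LNR and 1 was lower. Elastic fibre genes gave 1 higher of 18 between LNR and sham, and osteoclast regulators 1 of 7, Tnfrsf11b. Insulin-like growth factor genes gave 1 higher and 1 lower of 9 between the diets and 1 higher of 8 between LNR and sham, Igfbp3 being higher in both. Igfbp3 turned to -0.37 between the diets after thinning, and 5 members of each library held between 41.2% and 67.8% of its UMIs. Proteases and inhibitors gave 2 higher of 19 between the diets and 3 of 20 between LNR and sham, Mmp3 and Timp1 among them in both. Genes of limb position gave 1 higher of 20 between the diets and none of 19 between LNR and sham, fat cell progenitor genes 2 higher of 12 between the diets and 1 lower of 12 between LNR and sham, and interferon genes 3 lower of 10 between the diets (Ifit1, Rsad2 and Mx1) and 2 higher of 9 between LNR and sham (Isg15 and Rsad2). Without the 5 highest members of each library the ratios between the diets were -0.31 (-0.66 to 0.04) for Ifit1, -0.19 for Rsad2 and -0.09 for Mx1, and that of Isg15 between LNR and sham was 0.44, all under 1.5-fold, while Rsad2 was at 0.94 (-0.35 to 2.36) there. In clusters with mostly members no interferon gene passed 1.5-fold, of 9 between the diets and 7 between LNR and sham. In the other fibroblasts 4 of 10 were lower between the diets, with a median of -0.56, and none of 9 passed 1.5-fold between LNR and sham.

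RNA of marker genes of other cell types was present in the members, and its level differed between the paired libraries. Whether the members made it themselves was not tested. Beside the counts below, 4.25% of all genes tested were over 1.5-fold higher and 2.44% lower between the diets. Between LNR and sham the shares were 2.51% and 3.31%. The summed level of 6 keratinocyte markers was 2338, 1774, 5167 and 7601 CPM, with none at 0, and 3 of 6 were over 1.5-fold lower after LNR. UMIs of 2 or more of these markers were in 94.1%, 82.8%, 58.0% and 57.6% of members. In the other fibroblasts the shares were 89.9%, 76.9%, 46.4% and 50.4%. The 4 erythroid markers summed to 847, 553, 1031 and 220 CPM, and 4 of 4 were higher after LNR, beside which stands Hbb-bs above. The 5 osteoblast markers summed to 94.3, 56.3, 102 and 25.5 CPM, and 3 of the 4 with enough UMIs were higher in both treated libraries, Runx2 among them. The 3 tendon markers summed to 85.3, 53.6, 42.9 and 29.4 CPM, with 3 of 3 higher between the diets and 1 of 3 between LNR and sham. The 4 lining markers summed to 1943, 1670, 7686 and 5144 CPM, with 2 of 4 and 1 of 4 higher. The 5 lymphatic endothelial markers summed to 31.7, 86.8, 65.7 and 44.6 CPM, with 5 of 5 lower with SAR131675 and 3 of 5 higher after LNR. Flt4, which encodes VEGFR3, was among them, with 12 UMIs in 5 members against 43 UMIs in 12 members on control diet. Of the UMIs of Mmrn1, another of these markers, 5 members held 91.5% with SAR131675 and 74.8% on control diet. The 6 immune markers summed to 106, 52.8, 255 and 298 CPM, with 3 of 6 higher between the diets and 2 higher and 1 lower between LNR and sham. Mural, blood endothelial, Schwann and melanocyte lists gave at most 1 gene past 1.5-fold in either pair, and markers of fat cells and mesothelium had too few UMIs for a ratio. The part of these cells or of their free RNA in the gene ratios was not tested.

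Removing members with over 1% of their UMIs in markers of other lineages left 2073, 1735, 1857 and 1688 members. The markers counted were the keratinocyte, blood and lymphatic endothelial, immune, mural, Schwann, melanocyte and erythroid lists. Osteoblast, tendon and lining markers were not counted, so that cells with these were not removed. Among the members left, the log2 ratio of Timp1 was 1.06 between the diets and 0.47 between LNR and sham. That of Zbtb16 was -0.97 between the diets, and that of Tnfrsf11b 0.87 and 0.69. Between LNR and sham the ratio of Acta2 was 1.29 among these members, that of Tagln 1.23 and that of Tnc 0.74. Of the 6 keratinocyte markers, 3 were then over 1.5-fold higher between the diets, beside 616 of 13826 genes, with a median of 0.62. None of the 6 passed 1.5-fold between LNR and sham. In the diet clusters with mostly members 3 of 6 were also higher, beside 339 of 12834 genes. In all members none of the 6 passed 1.5-fold between the diets.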

How the data were processed

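Single-cell RNA-seq was analysed in 4 libraries of mouse P3 digits. Unnormalised UMI counts of every gene in every barcode were deposited, made with Cell Ranger, for which the submitters' processing notes name version 6.1.2 and build GRCm39, while the file headers of the diet pair name version 8.0.1, which counts intronic reads by default. The pairs were therefore analysed apart. Barcodes were kept with 200 to 5500 genes, at most 30000 UMIs and at most 10% mitochondrial UMIs. The members and the gene lists were chosen with earlier results of these data known.

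UMIs of all members of a library were summed per gene and scaled to CPM. Intervals at 95% were exact Poisson for CPM, Clopper-Pearson for shares and exact conditional for log2 ratios. Those of log2 ratios were checked on simulated Poisson counts, the model they assume. That check says nothing of UMIs that gather in a few cells. All intervals cover counting error only, not the spread between cells or between animals. A gene was tested for a call when it had at least 50 UMIs over the members of a pair, and it was called past 1.5-fold. A count of 0 was set to a floor of 3 counts per library for a ratio. With 1 library per condition no p-value was computed. Fibroblasts of each experiment were clustered by the Leiden method at resolution 0.7 on 2000 variable genes, 30 principal components and 15 neighbours (scanpy 1.11.5, Python 3.11.15), and doublets were called with Scrublet but kept. Genes were named as genes of the rule, as genes of the fixed lists, as the 20 genes with the largest lowest ratio of members over other fibroblasts, as the 10 largest ratios of each pair in each direction, or as the 10 largest shared by both pairs, and others are said to be chosen after their values were seen. Some genes that these rules name are not reported here. The widely detected genes and the values within clusters were also added after seeing the data. Alternatives were other rules for the members, limits on cells, doublets removed, cells of mixed lineage removed, thinning, other minimums and folds, other scalings, other resolutions and each library left out.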

Additional observations from a re-analysis of the deposited data

How the results depend on the processing

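No paired analysis was possible because each condition is 1 library and the groups share no more than 1 replicate number. The log2 ratio of the share of members between LNR and sham was 0.31 when all 3 markers were asked for, 0.26 after thinning to 3000 UMIs and -0.0027 as a share of the fibroblasts, against 0.16. The 947 genes past 1.5-fold between the diets were 594 after thinning, 1794 at a minimum of 20 UMIs, 313 at 200 UMIs, 232 at 2-fold and 70 among widely detected genes. The 716 between LNR and sham were 366, 1362, 242, 219 and 23 under the same settings and 286 in the clusters with mostly members. The split of higher and lower genes was 378 and 421 between the diets without called doublets, and 289 and 194 between LNR and sham without cells of mixed lineage. Without the 5 members that held most of each gene it was 648 and 237 between the diets, with 624 of these genes shared with the 947, and 260 and 355 between LNR and sham, with 466 shared with the 716. Widely detected genes, clusters with mostly members and the 5 members left out were alternatives chosen after seeing the data. Clusters with mostly members held 54.5% of members at resolution 0.4 in the diet pair, and 60.4% at 0.4 and 41.7% at 1.2 in the LNR pair. Leaving out each library in turn gave 197 to 213 genes at least 2-fold higher in members in the libraries left, against 178. Asking for fewer libraries cannot lower this count, so that it is no check.

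Between the diets, 8 values of genes past 1.5-fold reversed. Igfbp3 was at -0.37 after thinning, and Rgcc at -0.19 with all 3 markers, -0.64 after thinning and -0.16 in the clusters with mostly members. Runx2 was at -0.11 with all 3 markers. Bglap was at -0.80 and Cst6 at -0.86 with no upper limits on genes and UMIs, and Hbb-bs at -0.36 without cells of mixed lineage. Between LNR and sham, 4 reversed, with Prg4 at -0.0094, Tpm2 at -0.11, Krt1 at 0.11 and Isg15 at -0.0041, all in the main cluster. The cause was not tested. Of the other gene values, 473 stayed within the interval of the main value and 159 moved out of it between the diets. The same counts were 238 and 120 between LNR and sham. Reversals were counted only for genes past 1.5-fold in the main analysis. For the other genes a change of direction was not counted. Counting error is the limit of every interval here, and the spread between animals was not measured.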

Other observations

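Many of the largest ratios between paired libraries rested on a few members. Between the diets, Bglap, a bone matrix protein, had 309 UMIs in 19 SAR131675 members against 10 UMIs on control diet, with 95.5% of the former in 5 cells. Krt73, a hair follicle keratin, had 159 UMIs in 24 members against 3 UMIs, Ccl17, a chemokine of dendritic cells, 157 UMIs in 5 members against 5 UMIs, and Dct, a pigment cell enzyme, 55 UMIs in 6 members against 1 UMI. The other largest ratios above 0 were those of Krt28, Fbp1, Tnfsf11, Saa3, Prr9 and Slamf7. Among the lower genes, Mmrn1, a lymphatic endothelial gene, had 59 UMIs in 10 members against 226 UMIs in 12, and Lyve1 165 UMIs against 383.

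Greb1, a hormone-responsive gene, had 84 UMIs in 51 SAR131675 members against 206 UMIs in 66 control members, a log2 ratio of -1.65 (-2.03 to -1.27), and Pate2 had 14 UMIs in 13 members against 48 in 39. The other genes with the lowest ratios were Wfdc2, Acod1, Flt4, Igkc, Ism2 and Fxyd2.

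Between LNR and sham, Ccer2 had 1220 UMIs in 9 LNR members against 3 UMIs in sham members, and Krt33a had 240 UMIs in 1 member against none. Ibsp, a bone sialoprotein, had 757 UMIs in 25 members against 21 UMIs, Acod1, an enzyme of activated macrophages, 118 against 4, and Cxcl3 61 UMIs in 10 members against none. The other higher genes were Krt83, Krtap13-1, Krtap11-1, Krt87 and Cnn1. The lower genes, Rptn, Krt77, Klk10, Krt27, Sprr1a, Krt9, Tchh, Hamp2, Prr9 and Lce1a2, were mostly genes of epidermis and hair, and Sprr1a had 89 UMIs in 30 members against 1304 UMIs in 65.

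Among the genes that differed most in the same direction in both pairs were Bglap2, Ibsp, Col10a1, Tnn, Ccl5, Bglap, Tagln, Rgs4 and Gm13889, higher in both treated libraries. Tnn, tenascin-W, had 399 UMIs in 66 SAR131675 members against 86 UMIs in 23 control members. No explanation of these differences was tested.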
